A study of Homo sapiens with 12 samples.

Results

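The comparison described here set VCaP-CT cells moved to 10 nM testosterone (T) for 48 h against VCaP-T cells kept at 10 nM T. It rests on 6 of the 12 libraries of the series, 3 per line, chosen by their sample labels alone. With the same testosterone level on both sides, the comparison asks which genes of the adapted line were not at the level of the androgen-dependent line after 48 h of rechallenge.

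VCaP is a cell line from a vertebral metastasis of prostate cancer with a TMPRSS2-ERG fusion. VCaP-T is a subclone of it that depends on testosterone. VCaP-CT is a subclone that was grown from VCaP-T at 0.1 nM T for 10 months and proliferates at that level. The cells sequenced were VCaP-T at passage 84 and VCaP-CT at passage 73, after 20 months of culture, in RPMI medium with charcoal-stripped serum. The 6 libraries not in the comparison came from VCaP-T depleted to 0.1 nM T over 48 h (depleted VCaP-T) and from VCaP-CT kept at its own 0.1 nM T. Each line is 1 subclone, so what belongs to low testosterone and what belongs to the subclone cannot be told apart. The lines also differed in time at 10 nM T, which was 48 h for VCaP-CT and the standing culture for VCaP-T, and in passage, and neither can be told apart from the line. Whether the replicates of a group came from different cultures is not given, and a p-value here then reflects how far these samples lie apart, which may be technical.

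Testosterone and its product dihydrotestosterone change transcription through response elements in enhancers and promoters. In luminal prostate cells androgens raise secreted proteases such as prostate-specific antigen, chaperones such as FKBP5 and enzymes of lipid synthesis, and they lower a set of neural and secretory genes. Prostate cancer cells kept at low androgen can change steroid metabolism or take up programs of other lineages, such as neuroendocrine or gastrointestinal ones.

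The 6 libraries held 30.5 to 37.6 M counted fragments. Replicates of VCaP-T at 10 nM T correlated at 0.9925 to 0.9939 and those of VCaP-CT at 10 nM T at 0.9917 to 0.9922. In depleted VCaP-T the correlations fell to 0.9621 because replicate 2 lay off the other libraries of its group, and it is called the outlying library below. It is not in the comparison, but the 4 groups share 1 estimate of the spread, so it enters the adjusted p. Of the 14 markers of VCaP identity, 14 were measured, and their summed level was 679359 to 688144 normalized counts in VCaP-T and 675506 to 694798 in VCaP-CT. KLK2 was the largest part of both sums, so near-equal sums do not mean equal members. KLK3 and FOLH1 were lower and ERG and FOXA1 higher, as given below. DCN and PTPRC, markers of fibroblasts and leukocytes, had 0 counts in all 6 libraries, and KRT5, TP63, CHGA, CDH5 and COL3A1 had 0 to 4 counts per library. Other markers of these cell types were counted in both lines: KRT14 had 178 to 210 counts per library in VCaP-T and 91 to 115 in VCaP-CT. KRT15, COL1A1 and LYZ are given with their lists. Both lines carried the identity markers of their label. In bulk samples such as these, fewer cells of a type and less RNA per cell cannot be told apart.

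Of 19162 genes tested, 1962 (10.2%) met the 3 thresholds used by the study. The adjusted p had to be under 0.01, the fold change over 1 on the log2 scale in either direction, and the medians of both lines had to lie over 13 normalized counts apart. Such genes are referred to as called. Most called genes were lower in VCaP-CT, with 1355 genes lower (7.07% of those tested) and 607 higher (3.17%). The skew was larger among genes that differed over 4-fold, with 593 lower and 158 higher. It was much the same over 32-fold, with 72 lower and 19 higher. The median log2 fold change over all genes tested was 0.001. At the adjusted p alone 4791 genes (25.0%) differed, 2283 higher (11.9%) and 2508 lower (13.1%). In 61.7% of all genes tested the 3 values of VCaP-CT lay wholly above or below the 3 of VCaP-T, and this held for each of the 1962.

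Lower genes outnumbered higher ones in several classes of gene. Among protein-coding genes, 1126 of 13658 were lower (8.24%) and 400 higher (2.93%). Of 291 transcribed unprocessed pseudogenes 24 were lower (8.25%) and 8 higher (2.75%). Of 2661 lncRNAs 150 were lower (5.64%) and 128 higher (4.81%), and of 1668 processed pseudogenes 14 were lower and 39 higher, with a median log2 fold change of 0.14. Processed pseudogenes share sequence with their parent genes, so their counts are uncertain.

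The 12 protein-coding genes with the largest decrease in VCaP-CT had log2 fold changes from -10.93 to -7.93. BEX1, a small adaptor protein of neurons at chrX:103062651-103064240, had 271, 234 and 225 normalized counts in VCaP-T and 0, 0 and 0 in VCaP-CT. All 3 VCaP-CT libraries had no fragment, so the -10.93 of BEX1 is not a measured size. Set against a floor of 3 counts per library BEX1 was at least 72.9-fold lower. SNAP25, a SNARE protein that fuses vesicles with the plasma membrane, had 521, 567 and 519.7 normalized counts in VCaP-T and 0, 1.04 and 0 in VCaP-CT. This was 1655 fragments against 1, a 1454-fold ratio with a 95% counting interval of 261 to 57471. CPLX2, a complexin that clamps the same SNARE complex, had 3875, 3732 and 3513 normalized counts in VCaP-T and 9.84, 3.12 and 6.4 in VCaP-CT (log2 fold change -9.18, SE 0.24, adjusted p 1.8e-10).

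The calcium sensor SYT4 had 800.5, 819.6 and 876 normalized counts in VCaP-T and 1.23, 2.08 and 4.27 in VCaP-CT. RIMS2, a scaffold of the presynaptic active zone, had 1171, 1190 and 1212 normalized counts in VCaP-T and 6.15, 0 and 6.4 in VCaP-CT. LRRTM4, a synaptic adhesion protein, had 607, 622 and 648 normalized counts in VCaP-T and 3.69, 1.04 and 0 in VCaP-CT. In each of them the highest VCaP-CT library was over 100-fold below the lowest VCaP-T library. DLGAP1, a scaffold of the postsynaptic density, had 1107, 1099 and 1121 normalized counts in VCaP-T and 6.15, 1.04 and 6.4 in VCaP-CT. The other genes of this group were XKR7 (-9.20), CEACAM5 (-8.90), which encodes carcinoembryonic antigen, CCDC92B (-8.74), AMER3 (-8.66) and CPNE8 (-8.25), a calcium-dependent membrane-binding copine. CEACAM5 had 1 fragment in all of VCaP-CT against 728, CPNE8 had 2 against 810 and CCDC92B had 3 against 1625.

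The 12 genes with the largest increase had log2 fold changes from 3.96 to 8.85. PREX2, an exchange factor for the GTPase Rac, had 0, 0.951 and 0 normalized counts in VCaP-T and 202, 223 and 195 in VCaP-CT, a ratio of 640.0 with a 95% counting interval of 114 to 25308. CPA6, a secreted carboxypeptidase, had 9.55, 3.80 and 5.49 normalized counts in VCaP-T and 331, 378 and 349.9 in VCaP-CT. GPC6, a glypican that carries heparan sulfate on the cell surface, had 5.31, 0.951 and 9.15 normalized counts in VCaP-T and 287, 271 and 316 in VCaP-CT (log2 fold change 5.78, SE 0.29, adjusted p 3.7e-08).

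ADAMTS3, a protease that trims procollagen, had 55.2, 52.3 and 60.4 normalized counts in VCaP-T and 1723, 1744 and 1662 in VCaP-CT (log2 fold change 4.93, SE 0.10, adjusted p 3.1e-11). ADAMTSL1, a secreted relative without protease activity, had 11.7, 9.51 and 19.2 normalized counts in VCaP-T and 458, 445 and 560.1 in VCaP-CT. P3H2, which hydroxylates collagen prolines, had 25.5, 23.8 and 32 normalized counts in VCaP-T and 501, 559 and 502 in VCaP-CT. The rest were DOCK10 (5.09), an exchange factor for small GTPases, PRRG1 (4.17), SEMA5A (4.11), a guidance semaphorin, CCDC141 (4.05), KCTD16 (4.0), an auxiliary subunit of GABA-B receptors, and PWWP3B. None of the 24 genes had overlapping groups, which was so for every called gene and for 61.7% of all genes tested. The rule that chose the 24 fixes large differences at 10 nM T. All 24 were called in the same direction at 0.1 nM T, beside 72.8% of all genes called at 10 nM T.

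**Figure D1:**
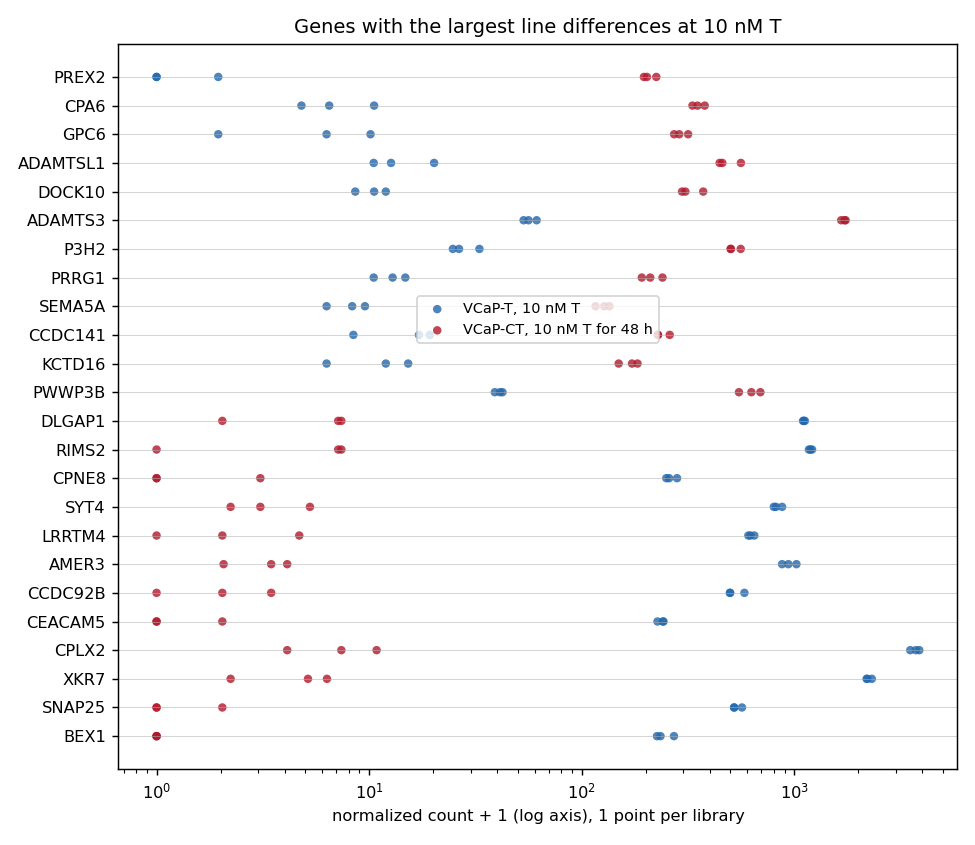
Normalized count + 1 on a log axis for the 12 genes with the largest increase and the 12 with the largest decrease in VCaP-CT at 10 nM T, 1 point per library, blue for VCaP-T and red for VCaP-CT. In the upper 12 rows the red points lie to the right and in the lower 12 rows they lie to the left, near 0 normalized counts, with a gap between the groups in every row.

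The 250 bases before the RefSeq transcript start (GRCh38.p14) are given as examples, 5′ to 3′, with CG dinucleotides in capitals. They belong to 2 genes near or at 0 in VCaP-CT and 2 near or at 0 in VCaP-T. Which start sites the cells used was not measured. BEX1 lies at chrX:103064172-103064421, minus strand, CEACAM6 at chr19:41755280-41755529, plus strand, ME1 at chr6:83431052-83431301, minus strand, and GPC6 at chr13:93226557-93226806, plus strand.
BEX1: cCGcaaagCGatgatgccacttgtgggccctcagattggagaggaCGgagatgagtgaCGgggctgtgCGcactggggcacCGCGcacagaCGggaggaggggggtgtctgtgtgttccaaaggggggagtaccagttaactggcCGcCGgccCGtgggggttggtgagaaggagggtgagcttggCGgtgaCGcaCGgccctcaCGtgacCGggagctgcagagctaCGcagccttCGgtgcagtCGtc
CEACAM6: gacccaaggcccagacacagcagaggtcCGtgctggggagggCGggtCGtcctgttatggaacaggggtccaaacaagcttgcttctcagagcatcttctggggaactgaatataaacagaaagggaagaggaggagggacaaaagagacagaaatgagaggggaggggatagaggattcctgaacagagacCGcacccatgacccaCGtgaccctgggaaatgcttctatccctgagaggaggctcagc
ME1: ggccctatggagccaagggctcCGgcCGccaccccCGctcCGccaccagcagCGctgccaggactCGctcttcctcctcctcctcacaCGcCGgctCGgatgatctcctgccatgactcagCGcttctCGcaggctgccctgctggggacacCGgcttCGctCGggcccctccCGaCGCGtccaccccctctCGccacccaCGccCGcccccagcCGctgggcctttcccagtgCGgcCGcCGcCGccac
GPC6: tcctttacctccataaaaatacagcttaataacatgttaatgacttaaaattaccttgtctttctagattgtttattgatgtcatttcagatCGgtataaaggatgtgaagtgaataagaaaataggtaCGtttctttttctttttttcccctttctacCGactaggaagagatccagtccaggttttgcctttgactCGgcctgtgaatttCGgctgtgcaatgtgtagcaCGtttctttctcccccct
These windows hold 19, 5, 25 and 6 CG dinucleotides. CG-rich and CG-poor windows both occur in either direction among these chosen examples. Over windows of 300 bases (250 before to 50 after the start) of the 12040 tested genes with a RefSeq entry, the median was 26 CG dinucleotides in all, 19 in 373 genes called higher and 22 in 893 called lower. The same order held among protein-coding genes, with medians of 26, 19 and 23. These medians are a description, with no test.

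Of the genes fixed as checks of the androgen response, KLK3 was lower in VCaP-CT, FKBP5 and ERG were higher, and the difference of TMPRSS2 did not pass the threshold. TMPRSS2, an androgen-induced membrane protease, had 13453, 13191 and 13217 normalized counts in VCaP-T and 12456, 12939 and 13141 in VCaP-CT (adjusted p 0.62). FKBP5, a chaperone of steroid receptors and a direct androgen target, was higher in VCaP-CT at 28773, 28592 and 27632 against 18282, 18596 and 19501 normalized counts (log2 fold change 0.59, SE 0.11, adjusted p 0.0012). ERG, which is driven by the TMPRSS2 promoter in these cells, was also higher at 26857, 27121 and 25848 against 15181, 15088 and 15801 (log2 fold change 0.79, SE 0.09, adjusted p 2.6e-05), and its difference at 0.1 nM T was the same 0.79.

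KLK3, the gene of prostate-specific antigen at chr19:50854915-50860764, had 79924, 78616 and 77771 normalized counts in VCaP-T and 14876, 14005 and 15053 in VCaP-CT. The lines did not overlap, and the difference was -2.43 on the log2 scale (SE 0.12, adjusted p 2.1e-08). Before rechallenge VCaP-CT had 1652, 1659 and 1695, so 48 h at 10 nM T went with a log2 change of 3.13 within the line, and the level reached stayed under that of VCaP-T. Its neighbours KLK2 and KLK4, also androgen-induced kallikreins and chosen after their values were seen, did not follow it. KLK2 had 317433, 310823 and 314530 normalized counts in VCaP-T and 351591, 336665 and 353903 in VCaP-CT (adjusted p 0.18) and KLK4 had 9978, 9354 and 9076 normalized counts in VCaP-T and 8767, 8386 and 9671 in VCaP-CT (adjusted p 0.46). Among 6 measured kallikreins, a list added after values were seen, KLK3 and KLK14 (-1.19) were lower and 0 higher (1 and 2 without the outlying library).

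The 250 bases before the KLK3 start (chr19:50854665-50854914, plus strand, RefSeq, GRCh38.p14) hold the hexamer AGAACA, the core of an androgen response element, shown in capitals because KLK3 is the androgen target among the checked genes in which VCaP-CT was lower:
KLK3: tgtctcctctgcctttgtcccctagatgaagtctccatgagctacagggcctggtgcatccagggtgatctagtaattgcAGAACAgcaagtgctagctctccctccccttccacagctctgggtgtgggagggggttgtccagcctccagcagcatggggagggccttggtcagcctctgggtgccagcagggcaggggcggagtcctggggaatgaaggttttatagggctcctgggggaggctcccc
AGAACA or its reverse complement TGTTCT occurred in 9.5% of the 300-base windows of the tested genes, in 12.1% of the genes called higher, in 9.7% of those called lower and in 14.9% of all 27305 windows. A match says only that the letters are there.

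For the gene lists, members were counted at an adjusted p under 0.01, beside the background of 11.9% higher and 13.1% lower over all genes tested. Over 36 lists, with a gene in several lists counted once, 191 genes were higher and 201 lower. These counts rose to 316 and 309 when the outlying library was left out of the fit. Where a list's count moved by over 1.5 times with 1 library left out, the counts without it stand beside it, higher before lower. In each gene named below as higher or lower at 10 nM T the groups did not overlap, as in 61.7% of all genes.

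Of 45 androgen-induced genes, 21 were higher in VCaP-CT and 7 lower, with a median log2 fold change of 0.48, against 0.22 at 0.1 nM T. The prostaglandin receptor PTGER4 had 62.6, 71.3 and 53.1 normalized counts in VCaP-T and 358, 405 and 405 in VCaP-CT. The calcium channel TRPM8 had 6999, 7237 and 7316 normalized counts in VCaP-T and 16534, 17127 and 16795 in VCaP-CT. ACSL3, which activates fatty acids, differed by 1.04 and the repressor ZBTB10 by 1.03. On the lower side HPGD, which inactivates prostaglandins, had 59334, 61496 and 62680 normalized counts in VCaP-T and 6025, 6178 and 5431 in VCaP-CT (log2 fold change -3.38, SE 0.11, adjusted p 9.2e-10). TRPM4, a cation channel (-1.27), and SORD, the sorbitol dehydrogenase (-0.68), were lower too. So the list held members on both sides, and HPGD and KLK3 had its lowest fold changes.

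Of 27 androgen-repressed genes 10 were lower and 7 higher, with a median of -0.39. DDC, which makes dopamine and serotonin from their amino acid precursors, had 1722, 1660 and 1780 normalized counts in VCaP-T and 189.5, 164 and 162 in VCaP-CT. The membrane peptidase MME had 1169, 1244 and 1287 normalized counts in VCaP-T and 177, 206 and 159 in VCaP-CT. LAMA1 (-2.47) and CAMK2N1 (-2.06), an inhibitor of CaM kinase II, were lower too. BCHE, butyrylcholinesterase, had 0, 0 and 0.915 normalized counts in VCaP-T and 30.8, 33.2 and 34.1 in VCaP-CT, 89 fragments against 1. ST6GAL1, a sialyltransferase, was higher by 3.13 and ST7 by 0.69, although 22% of ST7 exon length overlaps other genes.

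The list of steroid receptor coregulators and chaperones held 10 of 36 higher and 1 lower (22 and 3 without the outlying library). The HSP90 cochaperones FKBP4 and STIP1 were both higher: FKBP4 had 8085, 7791 and 7935 normalized counts in VCaP-T and 21284, 20211 and 21289 in VCaP-CT. STIP1 differed by 0.58. The chaperone HSPA8 differed by 0.77. GATA2, a pioneer transcription factor, had 4536, 4344 and 3665 normalized counts in VCaP-T and 9934, 9513 and 11108 in VCaP-CT (log2 fold change 1.28, SE 0.10, adjusted p 1.1e-06). The 1 lower member was NR3C1, the glucocorticoid receptor, which had 673, 625 and 657 normalized counts in VCaP-T and 70.1, 82.1 and 75.7 in VCaP-CT (log2 fold change -3.10, SE 0.17, adjusted p 8.0e-08).

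Of 23 genes of androgen synthesis and metabolism, 9 were lower and 5 higher, with a median of -0.45. AKR1C3, which makes testosterone from androstenedione, had 152, 149 and 184 normalized counts in VCaP-T and 19.7, 24.9 and 22.4 in VCaP-CT. SRD5A1, a 5-alpha reductase that makes dihydrotestosterone, had 1687, 1783 and 1858 normalized counts in VCaP-T and 920.5, 905 and 878 in VCaP-CT. DHRS9, an oxidoreductase of retinoids and steroids (-3.50), and CYP1B1, which hydroxylates estrogens (-1.26), were lower. HSD17B7, an enzyme of both estradiol and cholesterol synthesis, was higher by 1.23, HSD3B1 by 0.91, HSD17B12 by 0.62 and HSD17B4 by 0.44.

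Glucuronosyltransferases attach glucuronic acid to androgens and mark them for export. Of 12 list members, 5 were higher and 2 lower (3 to 5 and 1 with 1 of the 6 libraries left out). UGT2B11 had 39.3, 41.8 and 38.4 normalized counts in VCaP-T and 128, 111 and 101 in VCaP-CT, UGT2B28 had 6.37, 7.61 and 1.83 normalized counts in VCaP-T and 48.0, 42.6 and 37.3 in VCaP-CT. UGT2B4 was higher by 0.42. UGT3A2 was higher by 1.51. UGT1A1, which conjugates bilirubin, had 37.2, 45.6 and 51.2 normalized counts in VCaP-T and 0, 0 and 0 in VCaP-CT, at least 13.4-fold lower by the floor of 3 counts per library, but 49.9% of its exon length is shared with other genes. The UGT2B genes, like AKR1C3 and its relatives, are near copies of each other, so their counts are uncertain. The other lower member was the nucleotide-sugar transporter SLC35D1 (-0.66).

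Cholesterol synthesis and uptake was the list with the highest median, 1.02 at 10 nM T against 0.38 at 0.1 nM T, with 23 of 33 members higher and 1 lower. MSMO1, a sterol methyl oxidase, had 2574, 2721 and 2914 normalized counts in VCaP-T and 12428, 12382 and 11717 in VCaP-CT (log2 fold change 2.15, SE 0.10, adjusted p 1.9e-08). HMGCS1, at the entry of the mevalonate pathway, had 6559, 6872 and 6989 normalized counts in VCaP-T and 21590, 21844 and 20224 in VCaP-CT. SQLE, the squalene epoxidase, had 4366, 4583 and 4778 normalized counts in VCaP-T and 13129, 12887 and 12356 in VCaP-CT. NSDHL, a later sterol dehydrogenase, had 933, 925 and 897 normalized counts in VCaP-T and 2466, 2436 and 2536 in VCaP-CT. In each of the 4 the VCaP-CT libraries lay over 2-fold above the VCaP-T libraries. Within VCaP-CT, 20 of the 33 were higher at 10 than at 0.1 nM T and 0 lower, against 6.83% and 7.07% of all genes. At 0.1 nM T, 15 were higher than in depleted VCaP-T and 2 lower, against 12.8% and 16.4% of all genes. The first of these comparisons shares libraries with the line difference at 10 nM T.

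In fatty acid synthesis and lipid storage 8 of 36 genes were higher and 10 lower (5 to 6 and 8 to 9 with 1 of the 6 libraries left out). PPARG, the master factor of fat cell differentiation, had 245, 228 and 236 normalized counts in VCaP-T and 8.61, 3.12 and 11.7 in VCaP-CT (log2 fold change -4.91, SE 0.28, adjusted p 7.5e-08). Its coactivator PPARGC1A had 343, 338 and 373 normalized counts in VCaP-T and 48.0, 69.6 and 56.5 in VCaP-CT. The lipid droplet protein PLIN4 had 124, 142 and 107 normalized counts in VCaP-T and 12.3, 16.6 and 24.5 in VCaP-CT. SCD5, a desaturase, was lower (-1.97.) On the higher side stood the acyl-CoA synthetases ACSL1 (1.05) and ACSL3 (1.04) and the elongases ELOVL7 (0.90) and ELOVL5 (0.81).

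**Figure D2:**
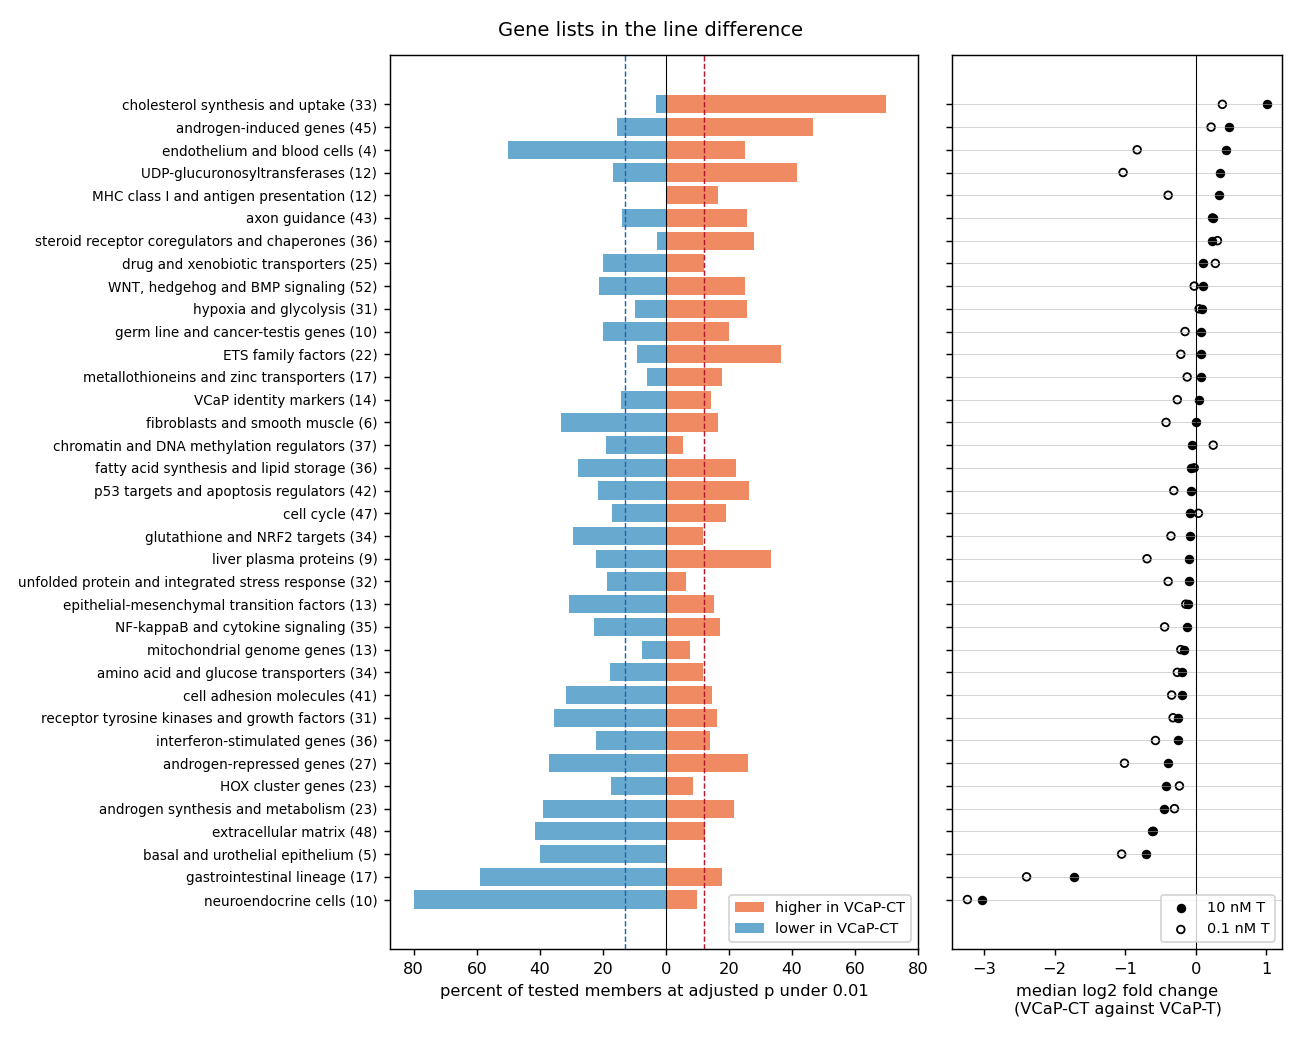
Left, percent of the tested members of each gene list (number tested in brackets) at an adjusted p under 0.01, higher in VCaP-CT to the right and lower to the left, with dashed lines at the 11.9% and 13.1% of all genes. Right, the list's median log2 fold change at 10 nM T (filled) and 0.1 nM T (open). Cholesterol synthesis and uptake stands at the top with a median of 1.02 and neuroendocrine cells at the bottom with -3.04.

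Of 10 measured neuroendocrine genes, 8 were lower in VCaP-CT and 1 higher (2 and 8 without the outlying library), the lowest median of all lists at -3.04. Chromogranin B (CHGB), a core protein of secretory granules, had 3060, 3103 and 3057 normalized counts in VCaP-T and 23.4, 13.5 and 16.0 in VCaP-CT (log2 fold change -7.46, SE 0.16, adjusted p 4.2e-11). SCG3, another granin, had 2702, 2579 and 2700 normalized counts in VCaP-T and 269, 234 and 187 in VCaP-CT. SYT4 and DDC were given above. The higher member was ENO2, neuron-specific enolase, at 946, 848 and 846 against 494, 477 and 534. The neuroendocrine factor INSM1 did not follow the decrease, with 869 to 916 unscaled counts per library in VCaP-T and 983 to 1130 in VCaP-CT. Chromogranin A had 0 to 1 in both lines. The summed level of the list was 11156 to 11359 normalized counts in VCaP-T and 2743 to 3090 in VCaP-CT, with 4 of 18 markers at 0 in each line.

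A list of 40 measured genes of synaptic vesicle release was added after the largest decreases were seen, so its count describes and supports nothing. There 22 members were lower and 3 higher (1 to 2 and 19 to 21 with 1 of the 6 libraries left out, and 6 and 24 without the outlying library), with a median of -1.03. Besides SNAP25, CPLX2 and SYT4, the vesicle protein SYN1 had 297, 276 and 305 normalized counts in VCaP-T and 8.61, 12.5 and 10.7 in VCaP-CT. Higher were PPFIA2 (1.29), RAB3A (0.96) and RIMS1 (0.80), all of the presynaptic terminal.

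Of 17 gastrointestinal lineage genes, 10 were lower and 3 higher (1 to 3 and 10 with 1 of the 6 libraries left out), with a median of -1.72. The factor HNF4G, which can drive gut genes in prostate cancer, had 373, 416 and 378 normalized counts in VCaP-T and 11.1, 4.16 and 2.13 in VCaP-CT (log2 fold change -6.10, SE 0.27, adjusted p 1.2e-08). CDH17, the intestinal cadherin, had 459, 473 and 493 normalized counts in VCaP-T and 7.38, 11.4 and 17.1 in VCaP-CT. The secreted lectin REG4 had 661, 695 and 698 normalized counts in VCaP-T and 39.4, 41.6 and 41.6 in VCaP-CT. AGR2, a disulfide isomerase of mucus cells, went the other way, higher by 0.94. Among 9 measured liver plasma proteins 3 were higher and 2 lower, with AFP at 1.94, TTR at 1.26, VTN at 0.83, APOH at -1.45 and ORM2 at -1.33.

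Among genes of cell contact and matrix more were lower than higher. Of 41 cell adhesion molecules, 13 were lower and 6 higher (9 and 20 without the outlying library). CEACAM6, whose start site is printed above, had 899, 919 and 964 normalized counts in VCaP-T and 1.23, 7.27 and 4.27 in VCaP-CT (log2 fold change -7.68, SE 0.26, adjusted p 1.3e-09). P-cadherin (CDH3) had 174, 153 and 167 normalized counts in VCaP-T and 3.69, 4.16 and 7.47 in VCaP-CT. The neural adhesion molecule NRCAM had 5302, 5363 and 5578 normalized counts in VCaP-T and 694, 666 and 572 in VCaP-CT. ALCAM was higher by 1.44, DSCAM by 1.58 and NECTIN4 by 1.03. CEACAM genes are alike in sequence, so their counts are uncertain.

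Of 48 extracellular matrix genes, 20 were lower and 6 higher (3 to 4 and 14 to 20 with 1 of the 6 libraries left out, and 11 and 25 without the outlying library), with a median of -0.62. COL1A1, of fibrillar collagen I, had 242, 198 and 172 normalized counts in VCaP-T and 19.7, 13.5 and 20.3 in VCaP-CT. The anchoring collagen COL7A1 (-1.56), the laminin LAMA1 (-2.47) and FBLN1 (-1.49) were lower as well. MGP, which inhibits calcification of matrix, had 160.3, 171 and 167 normalized counts in VCaP-T and 1601, 1616 and 1515 in VCaP-CT (log2 fold change 3.25, SE 0.22, adjusted p 4.2e-07). LUM, a proteoglycan of collagen fibrils, COL5A2 and LAMA3 were higher by 1.66, 1.5 and 1.15. Of the 6 measured fibroblast and smooth muscle markers, which include COL1A1 and LUM, 2 were lower and 1 higher. Their summed level was 751 to 877 normalized counts in VCaP-T and 538 to 560 in VCaP-CT. 3 and 5 of 12 markers were at 0 in all 3 libraries of the line.

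Of 5 measured basal markers ITGB4 and KRT15 were lower and 0 higher (1 and 3 without the outlying library). ITGB4, the hemidesmosome integrin, had 172, 161 and 137 normalized counts in VCaP-T and 2.46, 2.08 and 4.27 in VCaP-CT. KRT15 had 283, 277 and 253 normalized counts in VCaP-T and 14.8, 4.16 and 9.60 in VCaP-CT. The summed basal list fell in the range 778 to 885 in VCaP-T and 370 to 438 in VCaP-CT. Among 13 factors of epithelial-mesenchymal transition, 4 were lower and 2 higher. KLF8, a repressor of E-cadherin, had 0, 2.85 and 2.75 normalized counts in VCaP-T and 88.6, 89.3 and 93.9 in VCaP-CT. SNAI2, which also represses it, had 209, 189 and 202 normalized counts in VCaP-T and 56.6, 45.7 and 61.9 in VCaP-CT. KLF4 (-1.12) and GRHL1 (-1.26), which keep epithelial genes on, were lower, while GRHL3, a relative of GRHL1, was higher by 1.33.

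In WNT, hedgehog and BMP signaling 13 of 52 genes were higher and 11 lower. The ligands were split: SHH had 47.8, 55.1 and 51.2 normalized counts in VCaP-T and 4.92, 3.12 and 1.07 in VCaP-CT and BMP2 had 169, 184 and 180.3 normalized counts in VCaP-T and 25.8, 14.5 and 25.6 in VCaP-CT. BMP7 had 606, 571 and 506 normalized counts in VCaP-T and 1112, 1164 and 1211 in VCaP-CT and WNT5B had 64.8, 69.4 and 65.9 normalized counts in VCaP-T and 177, 175 and 186 in VCaP-CT. The WNT receptor FZD4 was higher by 1.75 and FZD6 lower (-1.27.) LGR5, a receptor for R-spondins, was lower (-1.15), and the TGF-beta inhibitor SMAD7 was higher by 0.93.

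Of 43 axon guidance genes 11 were higher and 6 lower (6 to 9 and 4 to 6 with 1 of the 6 libraries left out, and 19 and 12 without the outlying library). The semaphorin receptor NRP1 (1.05) and the ephrin EFNB2 (1.68) were higher, and the ephrin receptors EPHA7 (-2.18) and EPHA5 (-1.4) and the repellent SLIT2 (-1.77) were lower. Of 31 receptor tyrosine kinases and growth factors, 11 were lower and 5 higher (5 to 6 and 7 to 11 with 1 of the 6 libraries left out, and 11 and 13 without the outlying library). ERBB3 had 5914, 6134 and 6183 normalized counts in VCaP-T and 2194, 2138 and 2177 in VCaP-CT. TGFA, a ligand of its partner EGFR, had 1193, 1207 and 1232 normalized counts in VCaP-T and 364, 348 and 335 in VCaP-CT. IGFBP2, which binds insulin-like growth factors, had 2446, 2120 and 1785 normalized counts in VCaP-T and 7397, 6324 and 8268 in VCaP-CT. IGFBP4 was lower (-1.60). PDGFB (1.48), FGFR3 (1.05) and VEGFA (0.67) were higher.

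Of 36 interferon-stimulated genes, 8 were lower and 5 higher (5 and 13 without the outlying library), against the 13.1% and 11.9% of all genes. IRF8, a factor of myeloid cells, had 70.1, 72.3 and 79.6 normalized counts in VCaP-T and 3.69, 4.16 and 2.13 in VCaP-CT. The antiviral genes ISG20 (-2.23), OAS1 (-1.12) and USP18 (-1.05) were lower. HERC5, a ligase for ISG15, had 195, 188 and 214 normalized counts in VCaP-T and 811, 836 and 782 in VCaP-CT. LGALS3BP was higher by 1.52. In NF-kappaB and cytokine signaling 8 of 35 were lower and 6 higher (5 and 5 to 6 with 1 of the 6 libraries left out, and 11 and 13 without the outlying library). STAT5A (-1.79), JAK3 (-1.77) and RELB (-1.31) were lower, while TNFAIP3, which switches NF-kappaB off, was higher by 1.06 and TLR3, a sensor of double-stranded RNA, by 1.07. Of 12 antigen presentation genes 2 were higher, TAPBPL (1.30) and ERAP2 (0.42), and 0 lower (1 to 2 and 0 to 1 with 1 of the 6 libraries left out, and 6 and 2 without the outlying library).

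Of 34 glutathione and NRF2 target genes, 10 were lower and 4 higher (2 to 4 and 9 to 10 with 1 of the 6 libraries left out, and 12 and 11 without the outlying library). The reductase NQO1 had 575, 617 and 598 normalized counts in VCaP-T and 93.5, 96.6 and 78.9 in VCaP-CT. The glutathione peroxidase GPX2 had 676, 727 and 656 normalized counts in VCaP-T and 51.7, 68.6 and 54.4 in VCaP-CT. GPX3 (-1.59) and GSTM4 (-1.33) were lower too. The largest increase was that of malic enzyme ME1, which makes NADPH in the cytosol. It had 0, 0 and 0 normalized counts in VCaP-T and 86.1, 50.9 and 70.4 in VCaP-CT, at least 23.6-fold higher by the floor of 3 counts per library. ALDH1A1, which makes retinoic acid, was higher by 1.11.

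Of 42 p53 targets and apoptosis regulators, 11 were higher and 9 lower (7 to 11 and 6 to 8 with 1 of the 6 libraries left out, and 18 and 15 without the outlying library). BCL2, which blocks apoptosis, had 56.3, 54.2 and 63.1 normalized counts in VCaP-T and 194, 168 and 189.9 in VCaP-CT. BAK1, which carries it out, was higher by 0.98. The TNF receptor TNFRSF1A had 90.2, 73.2 and 96.1 normalized counts in VCaP-T and 7.38, 5.19 and 6.4 in VCaP-CT. Of 47 cell cycle genes, 9 were higher and 8 lower (5 to 7 and 5 to 6 with 1 of the 6 libraries left out, and 16 and 20 without the outlying library). CDK6 (-1.82), the CDK inhibitor gene CDKN2A (-1.68) and CCNE1 (-1.02) were lower, and CDKN1B, which encodes p27, was higher by 1.19, as was the mitotic phosphatase CDC25C (0.91).

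Of 32 genes of the unfolded protein and integrated stress response, 6 were lower and 2 higher (1 to 2 and 4 with 1 of the 6 libraries left out, and 7 and 13 without the outlying library). ATF5 had 22090, 21237 and 19257 normalized counts in VCaP-T and 4121, 3836 and 4228 in VCaP-CT, though 23.7% of its exon length overlaps other genes, and the chaperones DNAJC3 (-0.97) and PDIA4 (-0.53) were lower. XBP1 (0.65) and TRIB3 (0.72) were higher. Of 31 hypoxia and glycolysis genes 8 were higher and 3 lower (13 and 5 without the outlying library). Carbonic anhydrase CA12 (1.33) and GAPDH (0.74) were higher, while hexokinase HK2 (-1.25) and phosphofructokinase PFKP (-1.38), both at early steps of glycolysis, were lower.

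Among 34 amino acid and glucose transporters 4 were higher and 6 lower (3 to 4 and 2 to 4 with 1 of the 6 libraries left out, and 9 and 12 without the outlying library). The glutamate transporter SLC1A1 (-2.32) was lower and its relative SLC1A2 (1.36) higher.

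Of 25 drug and xenobiotic transporters 5 were lower, led by ABCC3 (-2.92), and 3 higher, led by ABCG2 (1.66), or 7 and 6 without the outlying library. Of 17 metallothioneins and zinc transporters 3 were higher, with SLC39A6 at 1.00, and 1 lower, SLC30A4 (-0.56), or 6 and 4 without the outlying library. Of 37 chromatin and DNA methylation regulators 7 were lower, with CHD5 at -2.26 and EZH2 at -0.49, and 2 higher, KDM6A (1.05) and SMARCA1 (0.43), or 1 to 2 and 6 to 7 with 1 of the 6 libraries left out, and 11 and 13 without the outlying library. Of 22 ETS factors 8 were higher, with ETS1 at 0.98, and 2 lower, ELF3 (-0.59) and ELF4 (-1.53), or 6 to 8 and 1 to 2 with 1 of the 6 libraries left out, and 9 and 4 without the outlying library.

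Of 23 HOX genes 4 were lower, led by HOXC12 (-4.46), and 2 higher, HOXC9 (1.03) and HOXA11 (0.59), or 3 and 9 without the outlying library. Of 10 germ line genes 2 were lower, MAGEA3 (-3.82) and TEX14 (-1.04), and 2 higher, ASZ1 (3.58) and MAGEC2 (1.47), or 4 and 2 without the outlying library. Of 13 mitochondrial genome genes MT-ATP6 was higher (0.40) and MT-ND6 lower (-0.84), or 0 to 1 and 1 with 1 of the 6 libraries left out, and 4 and 7 without the outlying library. Of 14 identity markers FOXA1 (0.32) and ERG were higher, and KLK3 and FOLH1 (-1.59), the gene of PSMA, were lower, or 1 and 2 with 1 of the 6 libraries left out, and 7 and 4 without the outlying library. Of 4 measured endothelial and blood markers PECAM1 (1.29) was higher, and VWF (-0.36) and LYZ (-2.32) lower (1 and 1 with 1 of the 6 libraries left out, and 2 and 2 without the outlying library). The summed level of that list was 2921 to 3262 normalized counts in VCaP-T and 999 to 1039 in VCaP-CT. Most of the sum in VCaP-T was LYZ, whose counts are given below. The part of that list in the other results was not tested.

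The same line difference was measured at 0.1 nM T in the other 6 libraries, which share none with the comparison at 10 nM T. There 2356 genes (12.3%) were called between VCaP-CT and depleted VCaP-T, 692 higher and 1664 lower. Of the genes called at 10 nM T, 1429 were called there in the same direction, which is 72.8% of the 10 nM list and 60.7% of the 0.1 nM list. Lower genes were shared more, with 1081 or 79.8% of those at 10 nM T, than higher genes, with 348 or 57.3%. Over all genes tested, 8.68% were called lower and 3.61% higher at 0.1 nM T. Of the 533 genes called at 10 nM T and not so at 0.1 nM T, 501 had the same sign there. The share with the same sign over all genes tested was not counted, so the 501 is a description only. Only UGT2B11 was called in opposite directions.

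**Figure D3:**
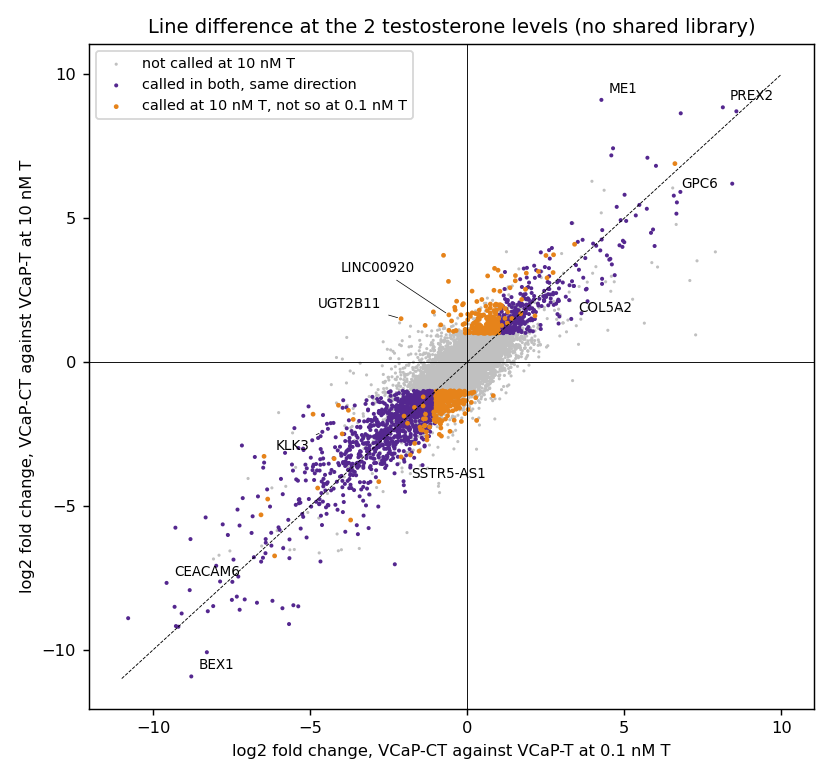
Log2 fold change of VCaP-CT against VCaP-T at 0.1 nM T (horizontal) and at 10 nM T (vertical), 1 point per gene tested, purple for the 1429 genes called in both in the same direction and orange for the 533 called at 10 nM T only or in opposite directions. Points lie along the dashed line of equal differences, with KLK3 and UGT2B11 above it and SSTR5-AS1 and COL5A2 below.

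The difference between both line differences was tested as an interaction, and 177 genes (0.924%) had an adjusted p under 0.01. In 147 of them (0.767%) the line difference was more positive at 10 nM T and in 30 (0.157%) more negative. Of the genes called at 10 nM T, 71 were among them, and 30 of the 533. The count depends on the libraries that enter: without the outlying library, which is in the 0.1 nM T arm, 1575 genes passed, and with each of the 6 libraries at 10 nM T left out in turn 62 to 95 passed.

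Most of the 5 genes with the smallest interaction p on the positive side were lower in VCaP-CT at both levels, but less so at 10 nM T. KLK3 had differences of -2.43 and -4.62 and an interaction of 2.19 (SE 0.16, adjusted p 3.5e-05). LYZ, lysozyme, had 2340, 2674 and 2524 normalized counts in VCaP-T and 474, 519 and 513 in VCaP-CT at 10 nM T, against 2819, 2360 and 2623 and 121, 127 and 112 at 0.1 nM T. Of its exon length, 34.0% overlaps other genes. GDA, guanine deaminase, had 2146, 2380 and 2280 normalized counts in VCaP-T and 368, 377 and 346 in VCaP-CT at 10 nM T, against 1962, 1851 and 1876 and 59.0, 78.6 and 74.1 at 0.1 nM T, and ASB9, a substrate receptor of a ubiquitin ligase, had an interaction of 2.27.

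The lncRNA LINC00920 stood out, with 540.4, 552 and 544 normalized counts in VCaP-T and 1752, 1812 and 1526 in VCaP-CT at 10 nM T, against 224, 235 and 241 and 158, 168 and 139 at 0.1 nM T. Its VCaP-CT libraries were above all VCaP-T libraries at 10 nM T and below them at 0.1 nM T. UGT2B11 did the same, with 39.3, 41.8 and 38.4 normalized counts in VCaP-T and 128, 111 and 101 in VCaP-CT at 10 nM T, against 42.6, 59.3 and 48.5 and 15.4, 10.4 and 8.01 at 0.1 nM T (interaction 3.61, SE 0.30, adjusted p 1.0e-04).

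On the negative side SSTR5-AS1, an antisense transcript of a somatostatin receptor gene, had 2363, 2153 and 2006 normalized counts in VCaP-T and 112, 104 and 119 in VCaP-CT at 10 nM T, against 3661, 4019 and 3924 and 947, 938 and 972 at 0.1 nM T. Its difference went from -2.02 at 0.1 nM T to -4.28 at 10 nM T, and 21.9% of its exon length overlaps other genes, with strand not used in counting. The adrenergic receptor ADRA2A had 1194, 1140 and 1209 normalized counts in VCaP-T and 538, 544 and 629 in VCaP-CT at 10 nM T, against 638, 834 and 612 and 773, 838 and 797 at 0.1 nM T. COL5A2, of collagen V, had 30.8, 32.3 and 35.7 normalized counts in VCaP-T and 84.9, 99.7 and 94.9 in VCaP-CT at 10 nM T, against 65.9, 40.7 and 52.6 and 493, 592 and 519.9 at 0.1 nM T, and the ligand WNT5A had 77.5, 68.5 and 68.6 normalized counts in VCaP-T and 177, 189 and 175 in VCaP-CT at 10 nM T, against 78.5, 54.3 and 92.8 and 572, 551 and 582 at 0.1 nM T. Both were higher in VCaP-CT at either level and closer to VCaP-T at 10 nM T. PPP3CA, the catalytic subunit of calcineurin, did likewise, with differences of 1.94 and 1.22.

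**Figure D4:**
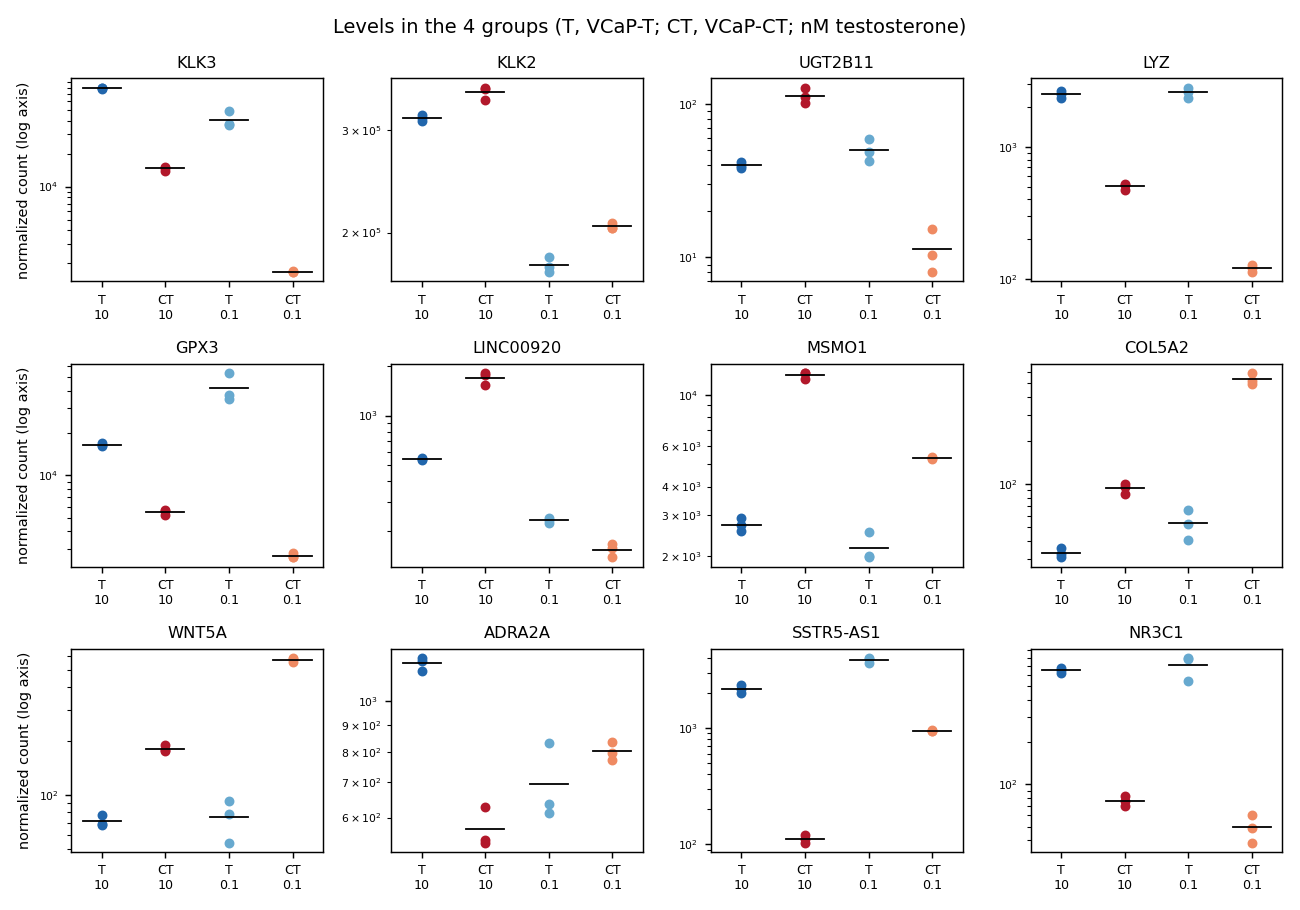
Normalized counts on a log axis in the 4 groups for 12 genes, 1 point per library with a bar at the mean, the pair at 10 nM T on the left and the pair at 0.1 nM T on the right. KLK3, LYZ and GPX3 stay lower in VCaP-CT at 10 nM T with a smaller gap, LINC00920 and UGT2B11 change order, and NR3C1 stays lower at both levels.

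As a description of genes that did come back, 6 were named for a large difference between the lines in their own media and none at 10 nM T, so that the lines are close at 10 nM T is fixed by the rule. C22orf42 had 155, 145 and 144 normalized counts in VCaP-T and 155, 125 and 150.4 in VCaP-CT at 10 nM T, against 30.9, 46.9 and 36.1 and 4.28, 3.79 and 2.00 at 0.1 nM T. The nuclear receptor NR4A2 had 46.7, 24.7 and 29.3 normalized counts in VCaP-T and 30.8, 29.1 and 33.1 in VCaP-CT at 10 nM T, against 343, 278 and 321 and 378, 399 and 374 at 0.1 nM T. ELMO1, an activator of Rac, had 11.1, 11.4 and 15.0 normalized counts in VCaP-CT at 0.1 nM T and 87.4, 73.8 and 91.7 at 10 nM T, against 109, 90.3 and 103 in VCaP-T. The phospholipase PLA2G4E had means of 15.8 ± 3.6, 163 ± 23.3 and 132 ± 18.6 (SD, n = 3) in the same groups. The others were the antisense transcripts ST7-AS1 and SLC5A4-AS1, of which 47.7% and 32.6% of exon length overlap other genes.

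Values within VCaP-CT are given here for other genes named above. The 12 genes with the largest decrease had at most 9.41 normalized counts in any VCaP-CT library at 0.1 nM T and at most 9.84 at 10 nM T. The rule that chose them fixes the low values at 10 nM T, so these are a description. HPGD went from 1296, 1395 and 1498 to 6025, 6178 and 5431, under the 59334, 61496 and 62680 of VCaP-T. FOLH1 went the other way, with 774, 798 and 885 at 0.1 nM T, 44.3, 61.3 and 42.7 at 10 nM T and 159, 155 and 135 in VCaP-T. These comparisons share the VCaP-CT libraries at 10 nM T and are given side by side only.

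The line difference was also set out along the genome. The tested genes were cut into 369 windows of 50 neighbours (GRCh38). Their median log2 fold changes ran from -1.20 to 0.61, and in 80 windows it was over 0.3 in size. All 80 had the same sign at 0.1 nM T, and over the 369 windows the medians at both levels correlated at a Pearson r of 0.93, a description over windows that share the cell lines and their gene content. By chromosome the median was 0.50 on 21 (0.51 at 0.1 nM T), 0.29 on X, 0.26 on 4 and -0.22 on 17.

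One stretch of chromosome 19 (chr19:49877425-51712387) was far below all others. There 44 of 50 genes had a log2 fold change below 0, the median was -1.20 (-1.27 at 0.1 nM T), and 19 genes were called lower and 1 higher. The next lowest window had a median of -0.52. NUP62, of the nuclear pore, had 29930, 29718 and 27925 normalized counts in VCaP-T and 4286, 4127 and 4772 in VCaP-CT. ZNF473CR had 9680, 10007 and 9664 normalized counts in VCaP-T and 736, 745 and 785 in VCaP-CT. ATF5 and KLK3 belong to the same stretch, as do KLK2 and KLK4, which did not differ past the threshold. NUP62 and ATF5 overlap each other, and 21.1% and 23.7% of their exon length is shared with other genes.

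Other low windows lay at chr17:42572315-44221626, with WNK4 (-4.16), a kinase that regulates ion transport, and VAT1 (-2.54), and at chr8:33370824-42332653. The chromosome 8 one had a median of -0.52 and holds ANK1 (-4.4). A further one lay at chr7:30911694-39793092, with a median of -0.51. It holds genes of the T cell receptor gamma locus, TRG-AS1 (-4.18) and TRGV2 (-2.37), beside EPDR1 (-1.37). High windows lay at chr5:133003119-138338355 with a median of 0.61, at chr19:57466663-58394806 with 0.60, at chr4:56393362-75050115 with 0.60 and at chr21:41885112-44979274 with 0.55. The chromosome 19 one holds zinc finger genes such as ZNF550 (1.38) and ZNF544 (1.15), and the chromosome 4 one holds ADAMTS3 and the bicarbonate transporter SLC4A4 (2.40).

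**Figure D5:**
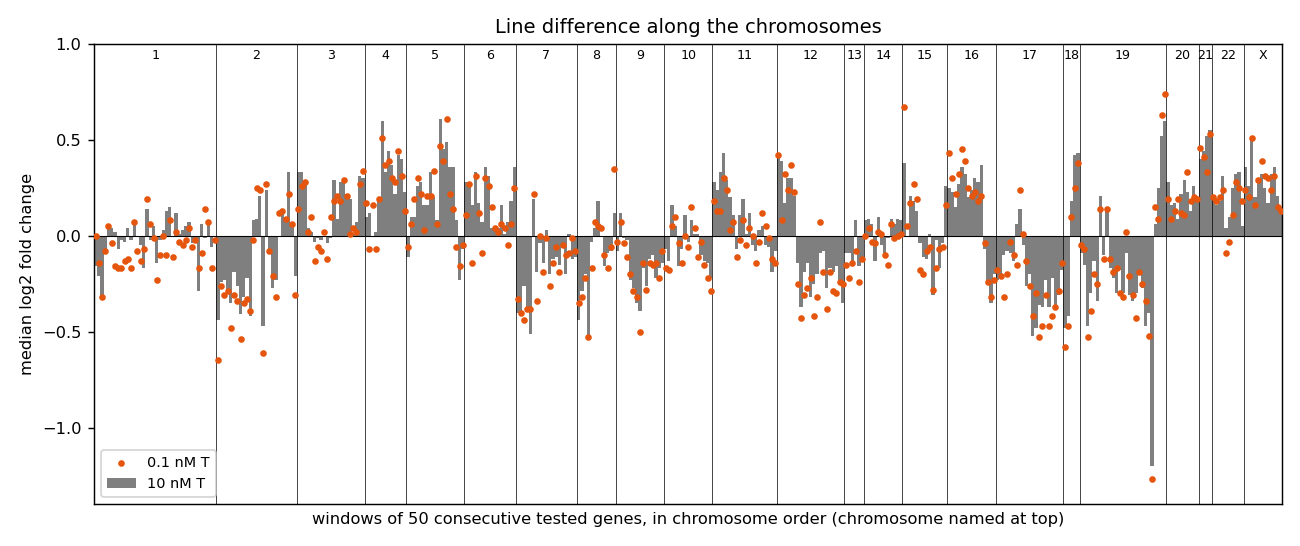
Median log2 fold change of VCaP-CT against VCaP-T in windows of 50 consecutive tested genes, in chromosome order, as grey bars at 10 nM T and orange points at 0.1 nM T. The points follow the bars along most chromosomes, and the lowest bar, -1.20, is the stretch chr19:49877425-51712387, which holds NUP62, ATF5 and KLK3.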

How the data were processed

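RNA was sequenced from 12 libraries, and the 6 at 10 nM T carry the comparison, with 30.5 to 37.6 M counted fragments each. The labels' processing notes name STAR 2.5.4b, featureCounts 1.6.2, Gencode release 28 and, for a normalized table not used here apart from its gene IDs, DESeq2 1.24.0 in R 3.6.1. Per the file headers, the deposited values are counts of fragments per gene, without strand and without fragments that map to several places or genes, so overlapping genes and near copies lose or share fragments. All 58381 count rows were read, with 0 count columns unused.

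Genes were kept by edgeR's filterByExpr (19162), scaled by TMM and fitted in 1 quasi-likelihood model of 4 groups with robust dispersion and no block (edgeR 4.0.16, R 4.3.3), with Benjamini-Hochberg adjustment over all genes tested. Normalized counts are counts divided by the TMM-scaled library size relative to its mean over the libraries. The statistics scripts were tested on simulated data. Same-numbered replicates of both lines did not deviate together (correlations 0.00, 0.00 and -0.13), so the numbers were not taken as pairs. Each SE is the size of the log2 fold change divided by the square root of the F statistic of its test. Intervals and floors cover counting error only.

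Genes were named by rule. The rule took 6 checks, the 12 largest changes per direction among protein-coding called genes with a mean of at least 100 normalized counts in the higher group, up to 4 genes per direction and list by adjusted p, 5 per direction of interaction, 6 that came back, and up to 4 per window of 50 genes. The members and lists were chosen with earlier results of these data known. The 2 lists of synaptic vesicle release and kallikreins and KLK2 and KLK4 were added after values were seen, and 1 list gene had no match. Values of a few named genes are not reported here. Alternatives were other scalings (RLE, upper quartile), filters, DESeq2 1.42.0, only the 6 libraries, the outlying library left out, a replicate block, each replicate left out in turn, the adjusted p alone and only genes of the authors' table. Start sites and promoter windows came from RefSeq on GRCh38.p14.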

Additional observations from a re-analysis of the deposited data

Results flagged for a closer look

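The line difference at 10 nM T differed from that at 0.1 nM T, by the interaction test of edgeR at an adjusted p under 0.01, in 177 genes. Each value here is the log2 line difference at 10 nM T minus that at 0.1 nM T. Among the genes named, the value was above 0 for UGT2B11 (3.61), C22orf42 (3.37), SNAI2 (3.35), DHRS9 (2.97), SLC5A1 (2.72), GPX3 (2.38), ASB9 (2.27), LINC00920 (2.22), KLK3 (2.19), PECAM1 (2.13), LYZ (2.12) and GDA (2.11).

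It was also above 0, by less, for ST6GAL1 (1.93), REG4 (1.87), DDC (1.66), TNFAIP3 (1.51), ZNF473CR (1.42), HPGD (1.30), UGT2B4 (1.28), PWWP3B (1.27), KLF4 (1.13), MSMO1 (0.86), ACSL3 (0.75), FGF13 (0.74), SLC43A1 (0.72), NSDHL (0.69), TMPRSS2 (0.62) and ELF3 (0.62). It was below 0 for SSTR5-AS1 (-2.26), COL5A2 (-1.81), WNT5A (-1.57), ST7-AS1 (-1.31), ADRA2A (-1.26), CAMK2N1 (-1.05) and PPP3CA (-0.73).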

How the results depend on the processing

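The count called at 10 nM T, 1962, ran from 1739 to 2216 over the other scalings, filters, tools and sets of libraries with the same thresholds, and from 1751 to 1821 with each replicate left out in turn. The adjusted p alone gave 4791, of which 2283 higher and 2508 lower, 5592 at 0.1 nM T and 3495 in both. Restricting the count to genes of the authors' table left 1538 called, with 402 of the 607 higher. Without the outlying library the lists had 316 higher and 309 lower in place of 191 and 201. The interaction count of 177 was the least stable, at 576 with DESeq2, 1575 without the outlying library, 82 with the replicate block and 62 to 95 with each replicate left out. The median of chromosome 21 was 0.46 under upper-quartile scaling, which moved the median of all genes to -0.03. No called gene named changed direction, but the balance of higher and lower members turned without the outlying library over all lists, in the cell cycle list (9 higher and 8 lower to 16 and 20), in the drug transporter list (3 and 5 to 7 and 6) and in the glutathione and NRF2 list (4 and 10 to 12 and 11). Of 285 named genes 274 passed the threshold at 10 nM T, and 24 lost it and 3 gained it under at least 1 alternative. The causes of these shifts were not tested.

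The replicate block rests on numbers that do not pair the samples, since 0 of 3 VCaP-CT libraries correlated best with their own number. It gave 1891 called genes (582 higher, 1309 lower), 1879 of them shared with the fit without it, 175 higher and 185 lower in the lists, 2269 called at 0.1 nM T and 1389 in both, and 9 named genes lost the threshold. With 3 libraries per group, low genes limit the precision.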
